A study of Homo sapiens with 95 samples.

Results

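Keratins are the intermediate filament proteins of epithelial cells, and the 10 described here are KRT5, KRT14, KRT15, KRT17, KRT6A, KRT6B, KRT16, KRT7, KRT8 and KRT18. They are defined by gene symbol among the 27978 genes listed in each of the 95 samples, with no threshold on a measured value. All 10 passed the filter on low counts in each comparison made.

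The samples were AALE cells, bronchial epithelial cells of human origin made immortal in culture, profiled by sparse full length (SFL) RNA sequencing, in which barcoded samples are pooled before sequencing. They came from 8 lines, each under 4 treatments. The lines FAT1 and CDKN2A were CRISPR knockouts of these tumor suppressor genes, with the line GFP as their control, which received the Cas9-EGFP plasmid without a guide RNA. The lines NRF2 (gene NFE2L2), FGFR1, NRG1 and PIK3CA overexpressed the named gene, with the line HCRED, carrying a vector with the HcRed reporter, as control. Cells received cigarette smoke condensate (CSC) at 24 μg/ml, the polycyclic hydrocarbon benzo(a)pyrene (BaP) at 173 μM, the nitrosamine NNK at 490 μM, or DMSO, the solvent. There were 3 samples in 31 of the 32 combinations and 2 in CSC-treated FGFR1. The labels do not say whether a line was a clone or a pool. The study calls the samples of a combination biological replicates, without saying how far they were cultured apart, and p-values measure the spread between them.

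A keratin filament is built from pairs of a type II and a type I chain. KRT5 (type II) and KRT14 (type I) form the filaments of basal cells, including those of the airway, and KRT15 is a further type I keratin of basal cells. KRT6A and KRT6B (type II) with KRT16 and KRT17 (type I) are known as stress keratins, because they are induced in epithelia after wounding. KRT8 (type II) and KRT18 (type I) form the filaments of simple, single-layered epithelia, and KRT7 is a type II keratin of glandular and ductal cells. On GRCh37 the type II genes KRT7 (chr12:52626304-52645970), KRT6B (chr12:52840435-52845930), KRT6A (chr12:52880960-52887041), KRT5 (chr12:52908359-52914314) and KRT8 (chr12:53290971-53343738) lie together with KRT18 (chr12:53342655-53346690), the type I gene beside KRT8. The other type I genes KRT15 (chr17:39669997-39678781), KRT14 (chr17:39738531-39743147), KRT16 (chr17:39766030-39772151) and KRT17 (chr17:39775694-39781094) form a second cluster. All are on the minus strand except KRT7 and KRT18.

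The libraries held between 287446 and 2116383 counted reads (median 934235), and the 10 keratins took between 0.404% and 1.35% of them. Levels are given as CPM, the counts scaled to a common library size, here after TMM scaling, and 3 reads corresponded to between 1.42 and 10.4 CPM. All 8 markers fixed for basal airway epithelium were detected, among them TP63 (mean 196 CPM) and ITGA6 (591 CPM), with a summed level of 2745 to 8123 CPM per sample. The 6 markers of simple or glandular epithelium, which include KRT8, KRT18 and KRT19, summed to 814 to 1618 CPM per sample. The 7 secretory markers summed to at most 6.95 CPM, the 3 endothelial markers to 3.92 CPM, the 7 ciliated markers to 30.2 CPM, the 4 leukocyte markers to 38.8 CPM and the 6 fibroblast markers to 66.9 CPM, of which COL1A1 gave a mean of 26.7 CPM. As a check of the labels, the targeted gene differed from the control line by a log2 fold change of -1.82 for FAT1, -1.16 for CDKN2A, 2.73 for NFE2L2, 4.54 for FGFR1, 8.23 for NRG1 and 2.63 for PIK3CA.

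Several of these genes are near copies of each other, which limits how far reads of 75 bases can tell them apart. The exons below were chosen because the levels of these pairs differed widely. Their letters are closer in KRT6A and KRT6B than in KRT14 and KRT16. They were read from GRCh37 (the build hg19), are written 5′ to 3′ along the transcripts, which lie on the minus strand, and carry in capitals the bases that differ within a pair. Exon 6 of KRT6A (chr12:52883727-52883852) and of KRT6B (chr12:52842626-52842751) differ at 1 of 126 bases.
KRT6A exon 6: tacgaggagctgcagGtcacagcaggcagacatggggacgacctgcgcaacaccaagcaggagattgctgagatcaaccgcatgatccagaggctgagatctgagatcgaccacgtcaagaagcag
KRT6B exon 6: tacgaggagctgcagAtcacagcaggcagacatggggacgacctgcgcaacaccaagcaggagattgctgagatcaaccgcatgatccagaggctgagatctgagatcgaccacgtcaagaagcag
Exon 2 of KRT6A (chr12:52885306-52885520) and of KRT6B (chr12:52844190-52844404) is the internal exon in which this pair differs most, at 13 of 215 bases.
KRT6A exon 2: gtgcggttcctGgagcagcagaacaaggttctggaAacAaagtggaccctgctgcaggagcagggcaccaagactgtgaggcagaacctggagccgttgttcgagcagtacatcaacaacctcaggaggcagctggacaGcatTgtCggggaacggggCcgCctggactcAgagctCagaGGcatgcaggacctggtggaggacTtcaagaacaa
KRT6B exon 2: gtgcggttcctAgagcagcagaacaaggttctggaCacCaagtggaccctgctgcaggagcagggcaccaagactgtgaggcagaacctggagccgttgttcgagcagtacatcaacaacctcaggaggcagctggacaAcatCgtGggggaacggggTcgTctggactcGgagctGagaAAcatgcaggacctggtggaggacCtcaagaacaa
Exon 3 of KRT14 (chr17:39740509-39740665) and of KRT16 (chr17:39767597-39767753) differ at 23 of 157 bases. No stretch of 75 bases in this exon is the same in both genes, while their exon 6 is closer (93.7% identical).
KRT14 exon 3: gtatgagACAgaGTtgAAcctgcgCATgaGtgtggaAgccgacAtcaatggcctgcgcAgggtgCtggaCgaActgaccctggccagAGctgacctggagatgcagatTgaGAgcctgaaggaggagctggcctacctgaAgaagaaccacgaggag
KRT16 exon 3: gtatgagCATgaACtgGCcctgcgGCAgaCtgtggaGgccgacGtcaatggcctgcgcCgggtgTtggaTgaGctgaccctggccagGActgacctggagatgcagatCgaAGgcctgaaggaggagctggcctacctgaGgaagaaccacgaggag

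Over 7 internal exons, KRT6A was 97.1% identical to KRT6B and 97.5% identical to its further copy KRT6C. KRT14 was 92.0% identical to KRT17 over 5 internal exons and 83.5% to KRT16 over 6. Stretches of 75 bases lying within a single exon of each gene's canonical transcript were sought in the genome on either strand. All were unique for KRT7 and KRT15. The share was 96.9% for KRT18, 96.3% for KRT5, 93.8% for KRT17, 86.1% for KRT16, 85.2% for KRT14 and 83.4% for KRT8. It was lowest for KRT6A (71.1%) and KRT6B (68.1%), so that the counts of KRT6B, between 0 and 27 reads per sample, are uncertain. The gene spans of KRT8 and KRT18 overlap by 1084 bases on opposite strands, and the sources used here do not say whether counting used the strand.

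KRT5, KRT6A and KRT17 led the levels. Per kilobase of annotated exons, the mean level over the 95 samples was 794 CPM for KRT5, the partner of KRT14, 552 CPM for KRT6A, 372 CPM for KRT17 and 117 CPM for KRT14. KRT7 followed at 78.2 CPM per kilobase, KRT18 at 50.1, KRT8 at 24.2, KRT16 at 10.9, KRT15 at 3.91 and KRT6B at 1.76. KRT5 was first and KRT6B last with each of 3 definitions of gene length. Per kilobase of the longest transcript KRT7 (192 CPM) stood above KRT14 (162 CPM). The same held per kilobase of the canonical transcript, a definition added after the data were seen. With that definition KRT17 (734 CPM) also stood above KRT6A (699 CPM). Stress keratins were thus among the most abundant members in DMSO already: in DMSO-treated HCRED, KRT6A gave 703 CPM per kilobase of exons and KRT17 gave 445, while KRT16 gave 16.0.

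**Figure D1:**
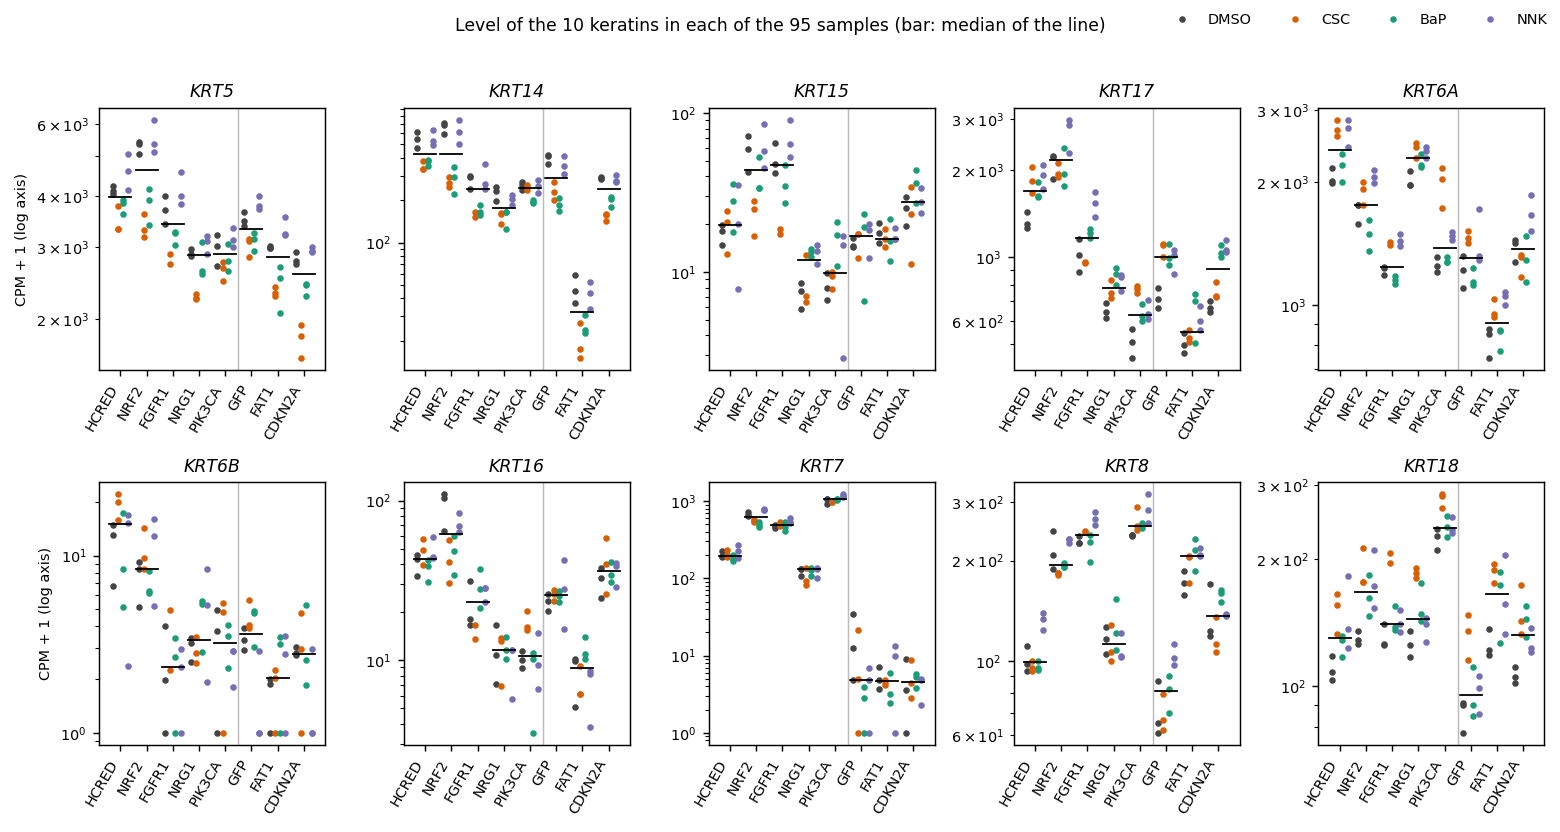
Level of each keratin in each of the 95 samples, as TMM-scaled CPM + 1 on a log axis, by line (HCRED and the 4 overexpression lines left of the gray line, GFP and the 2 knockout lines right of it) and treatment (color), with the median of each line as a bar. KRT14 lies between 14.0 and 57.9 CPM in FAT1 and at 124 CPM or above in the other 7 lines, and KRT7 lies at 33.3 CPM or below in GFP, FAT1 and CDKN2A and at 81.2 CPM or above in the other 5.

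The members differed in how widely they varied between the 32 combinations. Mean levels spanned 35.3-fold for KRT14, from 18.8 CPM in CSC-treated FAT1 to 662 CPM in DMSO-treated NRF2, and 15.7-fold for KRT16 and 10.7-fold for KRT15. The span was 5.44-fold for KRT17, 4.16-fold for KRT8, 3.30-fold for KRT6A, 3.24-fold for KRT18 and 3.10-fold for KRT5. The most and the least variable of these were therefore the 2 partners of the basal pair. KRT7 ranged from 1.58 CPM in BaP-treated GFP to 1169 CPM in NNK-treated PIK3CA, and KRT6B from 0.628 CPM to 18.4 CPM, both with a lower end under the level of 3 reads in most libraries.

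The first question of the design was whether a line differed from its control line. It was tested with limma on voom-transformed counts over all samples of both lines, with treatment as a term and Benjamini-Hochberg adjustment over all genes tested, and a keratin was called where the adjusted p was under 0.05. The comparisons of NRF2, FGFR1, NRG1, PIK3CA and GFP share the HCRED samples, and those of FAT1 and CDKN2A share the GFP samples. The effect of a perturbation and other differences between its line and the control line cannot be told apart. In the line FAT1, 8 of the 10 keratins differed from GFP (2 higher, 6 lower), where 48.9% of 14021 genes passed, 25.0% higher and 23.9% lower. The 6 lower include KRT6B, which passed the filter on low counts only through the GFP samples. In the line CDKN2A, 7 differed (4 higher, 3 lower), where 57.6% of genes passed, 29.4% higher and 28.3% lower. After a correction for trends with exon GC content and gene length, 2 were higher and 4 lower in CDKN2A. In FAT1 2 were higher and 6 lower with it, as before. In these comparisons so many genes passed that the count of keratins alone says little.

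Fewer genes passed in the overexpression lines, and most keratins did. Shares of all genes, here and below, cover each gene above the filter on low counts. KRT5 had 865 to 5898 reads per sample and KRT6A 352 to 3815, while KRT6B had 0 to 27. The part of read number in the counts of keratins called was not tested. In NRF2, 8 keratins differed from HCRED (7 higher, 1 lower), beside 21.6% of all genes (10.4% higher, 11.2% lower). In FGFR1 all 10 differed (4 higher, 6 lower), beside 13.5% of all genes (7.25% higher, 6.23% lower). In NRG1, 8 differed (1 higher, 7 lower), beside 10.8% of all genes (5.86% higher, 4.91% lower). The median log2 fold change of the 10 keratins was -0.85 in NRG1, where the median of all genes was near 0. In PIK3CA all 10 differed (3 higher, 7 lower), beside 27.8% of all genes (14.0% higher, 13.8% lower), with a median of -0.81 over the keratins. The control lines differed as well: 9 keratins were lower and none was higher in GFP than in HCRED, beside 45.0% of all genes (22.2% higher, 22.8% lower). Apart from KRT7 and KRT6B these falls ran from -0.24 for KRT5 to -0.87 for KRT6A on the log2 scale, and KRT15 gave -0.34 (adjusted p = 0.106).

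**Figure D2:**
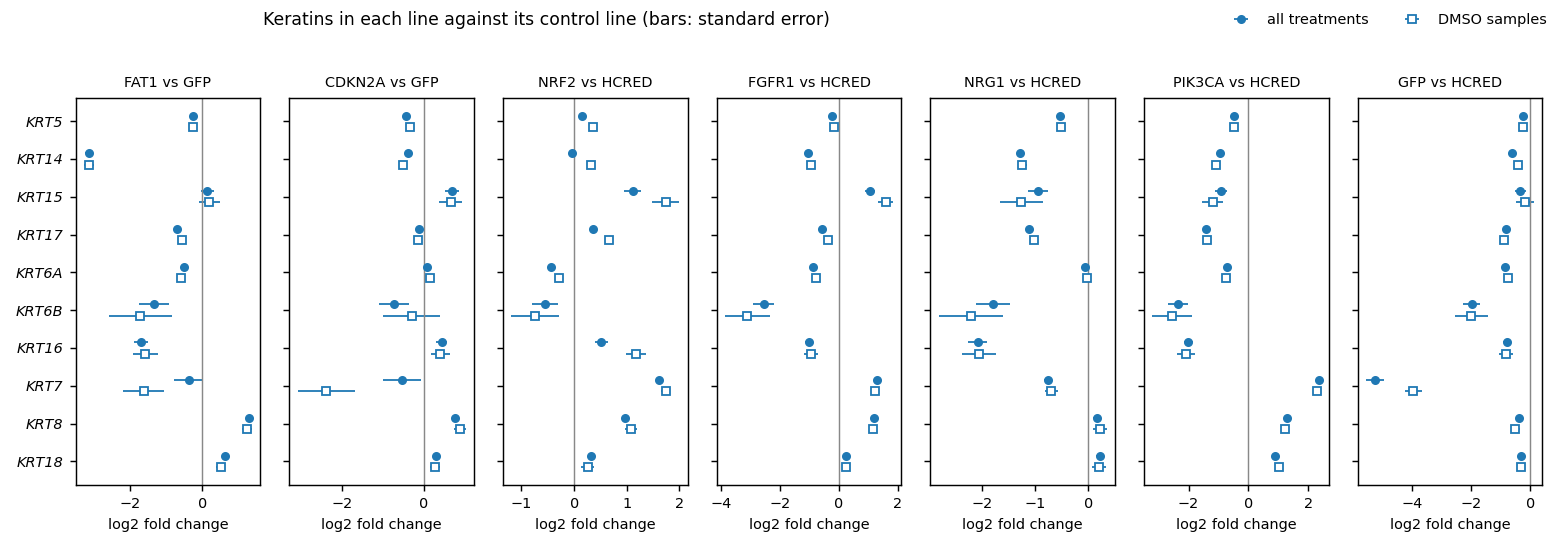
Log2 fold change of each keratin (rows) in each line against its control line, over all treatments (filled circles) and in DMSO samples alone (open squares), with standard errors as bars and a scale of its own in each panel. KRT14 lies at -3.13 in FAT1, KRT7 at 2.35 in PIK3CA and -5.24 in GFP, and KRT8 lies right of 0 in each of the 6 perturbed lines, although in NRG1 (0.15) it did not pass the test.

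KRT14, the type I partner of the basal pair, fell most in FAT1. Its lowest, median and highest levels were 14.0, 31.1 and 57.9 CPM in FAT1 and 166, 286 and 417 CPM in GFP, so the 12 samples of each line did not overlap. In bulk samples such as these, fewer cells with a gene's RNA and less RNA per cell cannot be told apart. The fall was 8.78-fold (log2 fold change -3.13, SE 0.10, adjusted p = 1.13e-41). In DMSO alone the FAT1 samples gave 57.9, 36.4 and 44.0 CPM and the GFP samples 360, 410 and 417 CPM. The type II partner moved far less: KRT5 gave 2066, 2837 and 3556 CPM in FAT1 and 2831, 3317 and 4009 CPM in GFP, a 1.20-fold fall (adjusted p = 7.55e-18) with overlapping ranges. The ratio of KRT5 to KRT14 per kilobase of the canonical transcript had a median of 63.9 in FAT1 (38.1 to 125), above the 8.76 of GFP (5.92 to 12.9) and the medians of 6.70 to 11.6 in the other 6 lines.

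The basal pair was also lower in other lines, by smaller factors. KRT14 gave 124, 174 and 246 CPM in NRG1 against 330, 428 and 633 CPM in HCRED, a 2.44-fold fall (-1.29, SE 0.06, adjusted p = 2.7e-29) without overlap. It fell 2.07-fold in FGFR1, 1.91-fold in PIK3CA, where the highest sample (276 CPM) lay below the lowest HCRED sample, and 1.29-fold in CDKN2A. KRT5 fell 1.45-fold in NRG1, 1.40-fold in PIK3CA, 1.35-fold in CDKN2A and 1.17-fold in FGFR1. The pair thus moved the same way in these 4 lines, with the larger factor in KRT14 except in CDKN2A. In NRF2, over all treatments, KRT5 rose 1.11-fold (0.15, SE 0.03, adjusted p = 2.78e-05), while KRT14 differed by -0.03 (SE 0.06, adjusted p = 0.78). These averages cover unlike treatments. Mean KRT14 in NRF2 and HCRED was 662 and 540 CPM in DMSO and 621 and 551 CPM under NNK. Under CSC it was 268 and 348 CPM, and under BaP 285 and 372 CPM. Mean KRT5 was 5279 and 4124 CPM in DMSO and 5539 and 4600 CPM under NNK. Under CSC it was 3361 and 3473 CPM, and under BaP 3823 and 3790 CPM.

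KRT15, a type I keratin of basal cells, was counted with 1 to 69 reads per sample. It gave 15.8, 42.9 and 84.8 CPM in NRF2 and 16.4, 46.4 and 90.0 CPM in FGFR1 against 6.81, 19.0 and 35.1 CPM in HCRED. It rose in both, 2.16-fold in NRF2 (1.11, SE 0.16, adjusted p = 9.31e-08) and 2.06-fold in FGFR1 (1.04, SE 0.17, adjusted p = 2.41e-06), with overlapping ranges. In DMSO the groups were apart, with 58.3, 71.0 and 41.8 CPM in NRF2 and 63.6, 47.1 and 41.0 CPM in FGFR1 against 17.2, 18.7 and 13.8 CPM in HCRED. KRT15 fell 1.93-fold in NRG1 and 1.90-fold in PIK3CA, and rose 1.63-fold in CDKN2A over GFP (adjusted p = 0.000381). In FAT1 it differed by 0.14 (SE 0.17, adjusted p = 0.516), in the line where KRT14 fell most.

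KRT17, the most abundant type I member, was lower in 6 comparisons and higher in 1. It gave 444, 628 and 789 CPM in PIK3CA against 1260, 1686 and 2091 CPM in HCRED, a 2.67-fold fall (-1.42, SE 0.04, adjusted p = 4.8e-46) without overlap. In NRG1 it fell 2.17-fold, to 614, 780 and 912 CPM, again without overlap, and in FGFR1 1.49-fold. It fell 1.62-fold in FAT1, to 464, 548 and 739 CPM. In NRF2 it rose 1.28-fold, to 1767, 2166 and 2992 CPM (0.36, SE 0.04, adjusted p = 1.64e-10). The difference in CDKN2A, -0.11 (SE 0.04, adjusted p = 0.0272), passed in 14 of 24 fits that each left out 1 library and had an adjusted p of 0.141 by DESeq2.

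KRT6A and KRT16, which pair with each other in stressed epithelia, did not keep a common course. In NRG1, KRT16 fell 4.21-fold, to 4.70, 10.5 and 15.5 CPM from 29.7, 42.1 and 58.4 CPM in HCRED (-2.08, SE 0.17, adjusted p = 2.88e-15), without overlap. KRT6A in the same line gave 1970, 2286 and 2486 CPM against 1993, 2391 and 2841 CPM, a difference of -0.07 (SE 0.03, adjusted p = 0.059). In NRF2 they differed in sign: KRT6A fell 1.36-fold (-0.44, SE 0.03, adjusted p = 2.1e-22) and KRT16 rose 1.43-fold (0.52, SE 0.12, adjusted p = 0.00086).

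In 3 further lines both were lower. In PIK3CA, KRT16 fell 4.02-fold, to a median of 9.65 CPM and at most 19.2 CPM, and KRT6A 1.63-fold, to 1205, 1378 and 2166 CPM. In FGFR1, KRT6A fell 1.84-fold, to 1124, 1240 and 1491 CPM, below each HCRED sample, and KRT16 fell 2.04-fold. In FAT1, KRT16 fell 3.22-fold, to 2.83, 7.87 and 13.0 CPM from 14.6, 24.7 and 41.5 CPM in GFP, and KRT6A 1.43-fold, both without overlap between the lines. In CDKN2A, KRT16 rose by 0.44 (SE 0.14, adjusted p = 0.00369), which was 0.20 (adjusted p = 0.206) after a correction that removed from each sample the trends with exon GC content and gene length (the GC and length correction), and KRT6A differed by 0.08 (SE 0.04, adjusted p = 0.0884).

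KRT6B, the near copy of KRT6A, gave few reads. Its lowest, median and highest levels were 1.37, 14.0 and 21.1 CPM in HCRED and 4.09, 7.35 and 15.1 CPM in NRF2, and no other line passed 7.36 CPM. It was lower in FGFR1 (-2.56, SE 0.35, adjusted p = 4.84e-08), PIK3CA (-2.35, SE 0.34, adjusted p = 3.1e-08) and NRG1 (-1.79, SE 0.32, adjusted p = 3.25e-05). It was also called lower in FAT1 than in GFP (-1.34, SE 0.41, adjusted p = 0.0048), where both lines lay at 4.64 CPM or below. FAT1 held 9 KRT6B reads over 12 samples and GFP 29, so the gene passed the filter on low counts only through GFP. That call is therefore not read as a fall in FAT1. In NRF2 and CDKN2A KRT6B gave -0.55 (adjusted p = 0.104) and -0.72 (adjusted p = 0.0819). Of its 75-base stretches 334 are shared with KRT6A and 519 with KRT6C, and the part of their reads in these counts was not tested.

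KRT8 and KRT18, the pair of simple epithelia, went against the basal and stress keratins in several lines. KRT8 gave 237, 254 and 315 CPM in PIK3CA, 197, 238 and 278 CPM in FGFR1 and 180, 193 and 244 CPM in NRF2, all above the 92.1, 98.2 and 138 CPM of HCRED. The rises were 2.45-fold in PIK3CA (1.30, SE 0.06, adjusted p = 1.01e-31), 2.30-fold in FGFR1 (1.20, SE 0.06) and 1.95-fold in NRF2 (0.96, SE 0.06). In FAT1 it rose 2.44-fold, to 156, 205 and 232 CPM from 59.9, 80.2 and 111 CPM in GFP (1.29, SE 0.07, adjusted p = 3.92e-26), again without overlap. In CDKN2A it rose 1.70-fold, to 106, 136 and 169 CPM. In NRG1 it gave 99.1, 111 and 153 CPM, a difference of 0.15 (SE 0.08, adjusted p = 0.211).

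KRT18 rose in each of the 6 perturbed lines by less than 2-fold. It gave 209, 236 and 284 CPM in PIK3CA against 102, 129 and 182 CPM in HCRED, a 1.86-fold rise (0.90, SE 0.06, adjusted p = 2.18e-23) without overlap. The rise was 1.53-fold in FAT1 over GFP (0.62, SE 0.07, adjusted p = 1.81e-11), 1.26-fold in NRF2, 1.24-fold in CDKN2A, 1.19-fold in FGFR1 and 1.16-fold in NRG1. In CDKN2A the rise of 0.31 was 0.13 (adjusted p = 0.0915) after the GC and length correction, and in NRG1 the rise of 0.21 (adjusted p = 0.0243) passed in 16 of 24 fits that each left out 1 library. The ratio of KRT8 to KRT18 per kilobase of the canonical transcript had medians of 1.35 in FGFR1, 0.990 in NRF2, 0.970 in FAT1, 0.866 in CDKN2A and 0.852 in PIK3CA, against 0.615 in HCRED and 0.648 in GFP.

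KRT7 was the member whose level set the lines apart most. It gave 903, 1056 and 1220 CPM in PIK3CA, 468, 616 and 800 CPM in NRF2, 410, 496 and 596 CPM in FGFR1, 167, 196 and 273 CPM in HCRED and 81.2, 129 and 136 CPM in NRG1. Of these neighbours in the order of levels only NRF2 and FGFR1 overlapped. The rise over HCRED was 5.12-fold in PIK3CA (2.35, SE 0.05, adjusted p = 3.02e-53), 3.05-fold in NRF2 (1.61, SE 0.05) and 2.45-fold in FGFR1 (1.29, SE 0.05), and the fall in NRG1 was 1.69-fold (-0.75, SE 0.08, adjusted p = 3.41e-12). In the lines of the Cas9 plasmid KRT7 was near the floor, with 0, 3.82 and 33.3 CPM in GFP, 0, 3.66 and 12.3 CPM in FAT1 and 0, 3.60 and 8.12 CPM in CDKN2A, which overlap each other.

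The difference in KRT7 between the control lines was -5.24 on the log2 scale (SE 0.30, adjusted p = 5.03e-27) and -5.83 without the DMSO-treated GFP replicate 3, which held 43 KRT7 reads where the other DMSO-treated GFP samples held 4 and 12. In DMSO the comparisons gave -1.61 for FAT1 (adjusted p = 0.0296) and -2.39 for CDKN2A (adjusted p = 0.00439), and without that library -0.77 (adjusted p = 0.361) and -1.55 (adjusted p = 0.0781). The call in FAT1 was also lost without any 1 of the 3 FAT1-DMSO samples (adjusted p of 0.126, 0.0687 and 0.0684 without replicates 1, 2 and 3), and that in CDKN2A without CDKN2A-DMSO replicate 2 (0.0725). Over all treatments they gave -0.38 (adjusted p = 0.461) and -0.53 (adjusted p = 0.332), and without the same GFP library 0.16 and 0.03. The order of KRT7 in GFP, FAT1 and CDKN2A is therefore not given as a result.

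The genes nearest to KRT7 in pattern were sought by Pearson correlation of mean log2 CPM over the 32 combinations, among 10053 genes that averaged 10 or more reads. They were SPARC, a secreted matrix protein (r = 0.995), KRT7-AS, a transcript that overlaps KRT7 by 2401 bases on the opposite strand (0.979), and TERT, the telomerase subunit used to immortalize AALE cells (0.978). The combinations share lines and libraries, so these values describe the pattern only. Without TMM scaling, TERT had medians of 1386 CPM in PIK3CA, 814 in NRF2, 495 in FGFR1, 432 in HCRED, 216 in NRG1, 28.5 in GFP, 19.9 in CDKN2A and 13.2 in FAT1. SPARC had medians of 211 CPM in PIK3CA and 49.9 CPM in HCRED and at most 17 reads in any GFP, FAT1 or CDKN2A sample. The GFP sample with 43 KRT7 reads also had the most TERT reads (87) and SPARC reads (17) of the GFP samples. Where counting did not use the strand, reads of KRT7 and KRT7-AS cannot be told apart.

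**Figure D3:**
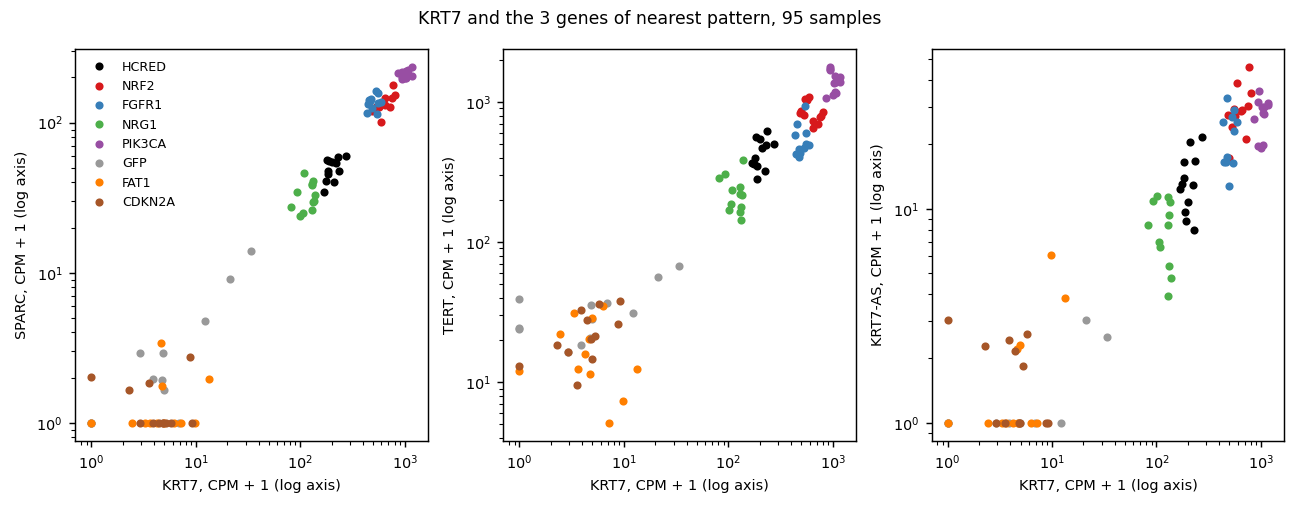
CPM + 1 without TMM scaling, on log axes, of SPARC, TERT and KRT7-AS against KRT7 in each of the 95 samples, colored by line. Samples of GFP, FAT1 and CDKN2A sit at the lower left, with at most 43 KRT7 reads, and those of PIK3CA at the upper right, with at least 618.

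For the other members the nearest pattern was less close. KRT8 was nearest to TIMP2 (r = 0.917), KRT18 to PDLIM7 (0.895), KRT14 to EPB41L5 (0.872), KRT17 to TIMP3 (0.871), KRT6A to TACC2 (0.849), KRT16 to MYH14 (0.839), KRT5 to TANC1 (0.816) and KRT15 to FGFR3 (0.789). Next came MRPL40 and APOL6 for KRT8, STK10 and BCL2L1 for KRT18, FARP1 and TRMT2B for KRT14, TRIM29 and POLR2J4 for KRT17, SLC29A1 and SH3BP4 for KRT6A, NPNT and PTPRS for KRT16, MFSD6 and CLTB for KRT5, and MYH14 and SLC7A8 for KRT15, with r between 0.743 for SLC7A8 and 0.877 for STK10.

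In DMSO samples alone, 3 against 3, the calls were 8 of 10 keratins in FAT1, where 26.3% of genes passed, 6 in CDKN2A (37.2%) and 8 in NRF2 (7.16%). There were 9 calls in FGFR1 (1.86%), 6 in NRG1 (2.04%), 10 in PIK3CA (8.6%) and 8 in GFP against HCRED (17.7%). Between 6 and 10 of the 10 keratins thus passed in each overexpression line. By DESeq2 the counts were 7 in FAT1, 3 in CDKN2A, 7 in NRF2, 5 in FGFR1, 5 in NRG1, 8 in PIK3CA and 5 in GFP against HCRED. KRT14 in NRF2 rose by 0.31 in DMSO (adjusted p = 0.00128), to 710, 681 and 595 CPM from 543, 609 and 468 CPM, and did not pass without NRF2 replicate 1 (adjusted p = 0.0506) or after the GC and length correction (0.17, adjusted p = 0.113). Further DMSO calls rested on a single library: KRT6A in CDKN2A was lost without CDKN2A replicate 1 (adjusted p = 0.0761), KRT5 in FGFR1 without FGFR1 replicate 3 (0.0717), KRT6B in PIK3CA without PIK3CA replicate 3 (0.056) and KRT16 in GFP without HCRED replicate 1 (0.0626). Calls lost with any 1 of several libraries left out were KRT17 and KRT7 in CDKN2A, KRT7 in FAT1, KRT6B and KRT16 in FGFR1, KRT6B in NRG1, KRT15 in PIK3CA and KRT8 in GFP. The keratins not called in DMSO were KRT15 (0.19) and KRT6B (-1.71) in FAT1, and KRT15 (0.66), KRT6B (-0.29), KRT16 (0.41) and KRT18 (0.27) in CDKN2A. They were KRT6B (-0.74) and KRT18 (0.25) in NRF2, KRT18 (0.25) in FGFR1, KRT15 (-1.26), KRT6A (-0.04), KRT8 (0.21) and KRT18 (0.20) in NRG1, and KRT15 (-0.19) and KRT18 (-0.33) in GFP.

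The second question was whether a chemical changed the keratins over the 8 lines, tested in the same way with genotype as a term. The 3 comparisons share the 24 DMSO samples. CSC changed 8 keratins (4 higher, 4 lower), where 55.6% of genes passed, 27.2% higher and 28.4% lower. BaP changed 4 (2 higher, 2 lower), where 51.4% passed, 26.4% higher and 25.1% lower. NNK changed 7, all higher, where 51.7% passed, 25.9% higher and 25.8% lower. With the GC and length correction the counts were 9 for CSC (2 higher, 7 lower), where 34.2% of genes passed (15.9% higher, 18.3% lower), and 6 for BaP, all lower, where 25.1% passed (11.1% higher, 14.0% lower). For NNK they were 5 (2 higher, 3 lower), where 17.4% passed (7.82% higher, 9.54% lower), so that for each chemical more of the calls were lower with the correction.

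Most rises under the chemicals depended on the GC and length correction. The exons of the 10 keratins had a GC content of 52.0% (KRT5) to 59.8% (KRT16), above the median of 47.9% over all genes with a model. Without the correction 56.6%, 52.9% and 53.4% of the genes that could be corrected passed under CSC, BaP and NNK. Each keratin's change moved down with it, by less in KRT5 than in KRT14. Corrected values are therefore given beside the uncorrected ones.

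KRT14 and KRT5 fell under CSC and BaP with and without the correction. In NRF2, KRT14 gave 710, 681 and 595 CPM in DMSO, 292, 266 and 246 CPM under CSC and 341, 291 and 222 CPM under BaP, so both treated groups lay below DMSO. Over the 8 lines KRT14 fell 1.68-fold under CSC (-0.74, SE 0.05, adjusted p = 1.92e-22, corrected -1.11) and 1.68-fold under BaP (-0.74, SE 0.05, adjusted p = 7.41e-23, corrected -1.08). KRT5 fell 1.28-fold under CSC (-0.36, SE 0.02, adjusted p = 1.95e-25, corrected -0.50) and 1.17-fold under BaP (-0.22, SE 0.02, adjusted p = 3.79e-14, corrected -0.36). Under NNK, KRT5 rose 1.08-fold (0.11, SE 0.02, adjusted p = 7.75e-08), which was -0.02 after the correction (adjusted p = 0.276). KRT14 differed by -0.07 under NNK (adjusted p = 0.168), and its corrected value of -0.41 passed as lower.

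KRT15 fell 1.53-fold under CSC (-0.61, SE 0.13, adjusted p = 2.08e-05, corrected -0.85) and differed by 0.07 (SE 0.11, adjusted p = 0.623) under BaP. Its rise of 0.27 under NNK (adjusted p = 0.0233) was 0.03 after the correction. That call was also lost without FGFR1-DMSO replicate 3 (adjusted p = 0.056), FGFR1-NNK replicate 1 (0.0778), NRF2-DMSO replicate 3 (0.0533) or NRF2-NNK replicate 2 (0.0596).

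Of the stress keratins, KRT17 rose under each chemical before the correction, and after it under NNK alone. Its log2 fold change was 0.23 under CSC (SE 0.04, adjusted p = 1.1e-07), 0.30 under BaP (SE 0.04, adjusted p = 7.45e-11) and 0.46 under NNK (SE 0.03, adjusted p = 2.92e-24). Corrected values were -0.13 under CSC (adjusted p = 0.000202), a change of sign, -0.05 under BaP (adjusted p = 0.328) and 0.10 under NNK (adjusted p = 0.00476). KRT6A rose 1.21-fold under CSC (0.27, SE 0.03, adjusted p = 8.1e-15, corrected 0.07) and 1.21-fold under NNK (0.27, SE 0.02, adjusted p = 1.7e-21, corrected 0.08), and both corrected values passed. Under BaP it gave 0.01 (adjusted p = 0.648, corrected -0.18). KRT6B gave 0.54 under CSC (SE 0.21, adjusted p = 0.0204, corrected 0.26 with adjusted p = 0.351), 0.24 under BaP (adjusted p = 0.372) and -0.11 under NNK (adjusted p = 0.761). KRT16 did not pass under any chemical before the correction but was lower after it, by -0.55 under CSC, -0.59 under BaP and -0.36 under NNK (adjusted p of at most 0.00514).

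KRT18 rose under CSC 1.42-fold (0.50, SE 0.04, adjusted p = 1.37e-20), and was still higher by 0.25 after the correction (adjusted p = 4.21e-08). In GFP it gave 76.4, 89.3 and 89.9 CPM in DMSO and 134, 146 and 114 CPM under CSC, without overlap, and its estimate was higher in 8 of 8 lines. Its rises under BaP (0.25) and NNK (0.24) came to nearly 0 with the correction, with adjusted p of 0.976 and 0.983. Its partner KRT8 gave no call without the correction under CSC (adjusted p = 0.98) or BaP (0.08, adjusted p = 0.149). With the correction KRT8 passed as lower under both, at -0.26 and -0.20. Under NNK it gave 0.22 (adjusted p = 4.72e-06, corrected -0.06). KRT7 gave -0.11 under CSC (adjusted p = 0.046, corrected -0.42), passing in 16 of 47 fits that left out 1 library, and 0.19 under NNK (adjusted p = 8.4e-05), which turned to -0.12 with the correction (adjusted p = 0.039). Under BaP it gave -0.10 (SE 0.05, adjusted p = 0.0661, corrected -0.40 with adjusted p = 6.21e-12).

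**Figure D4:**
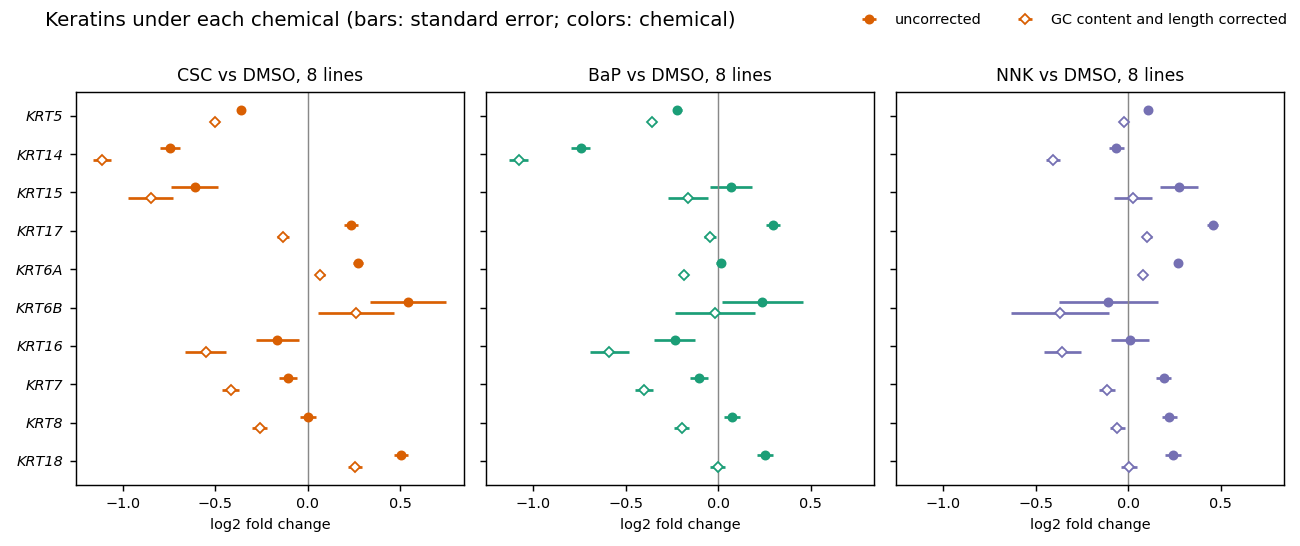
Log2 fold change of each keratin (rows) under CSC, BaP and NNK against DMSO over the 8 lines, without (filled circles) and with (open diamonds) the GC and length correction, with standard errors as bars. KRT14 lies at -0.74 under CSC and BaP and further left with the correction, while KRT17 lies right of 0 under each chemical without it and at -0.13, -0.05 and 0.10 with it.

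Other values moved with the treatments. The summed level of the 6 fibroblast markers, most of it COL1A1, was 8.18 to 34.9 CPM in DMSO, 14.1 to 55.8 CPM under CSC, 12.5 to 66.9 CPM under BaP and 12.1 to 52.2 CPM under NNK, while COL3A1 gave 3 reads in all. The 4 leukocyte markers, carried by CD68, summed to 4.83 to 18.0 CPM in DMSO and 3.42 to 38.8 CPM under CSC. The median library held 1051108 counted reads in DMSO and 825587, 836088 and 753702 under CSC, BaP and NNK. The part of these differences in the keratin values was not tested.

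The third question was whether the lines responded unequally to a chemical, tested by an F test of the interaction of line and chemical. For CSC 6 keratins passed, where 0.952% of genes did, for BaP 4 passed, where 0.368% did, and for NNK none passed, where 0.452% did. For NNK, 2 keratins (KRT17 and KRT8) had an unadjusted p under 0.05 by limma, edgeR called none, and DESeq2 called KRT7 (adjusted p = 0.0161). Values within a line, below, are estimates from the same fit and were not tested singly.

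The response of KRT14 to CSC was lower than 0 in 8 of 8 lines, from -1.33 (SE 0.09) in NRF2 to -0.06 (SE 0.10) in PIK3CA, and differed between lines (adjusted p = 1.9e-07). In PIK3CA, KRT14 gave 235, 269 and 257 CPM in DMSO and 256, 237 and 249 CPM under CSC, within each other's range. KRT5 had its extremes in the same lines, from -0.67 (SE 0.04) in NRF2 to -0.19 (SE 0.04) in PIK3CA (adjusted p = 7.06e-08). For BaP the extremes were again NRF2 and PIK3CA, at -1.22 (SE 0.09) and -0.38 (SE 0.11) for KRT14 (adjusted p = 0.000178). KRT5 went from -0.46 (SE 0.04) to -0.08 (SE 0.05) under BaP (adjusted p = 0.0251). That call was lost by DESeq2 (adjusted p = 0.555) and without CDKN2A-BaP replicate 1 (0.0807), NRF2-BaP replicate 3 (0.209), NRF2-DMSO replicate 1 (0.148) or NRF2-DMSO replicate 2 (0.0773).

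KRT15 responded to CSC most in the 2 lines where its level was highest. It gave 58.3, 71.0 and 41.8 CPM in DMSO and 23.9, 15.8 and 27.0 CPM under CSC in NRF2, and 63.6, 47.1 and 41.0 CPM in DMSO and 16.4 and 17.6 CPM under CSC in FGFR1, without overlap. The estimates were -1.33 (SE 0.26) in NRF2 and -1.54 (SE 0.26) in FGFR1, and between -0.38 and 0.22 in the other 6 lines (adjusted p = 0.0135). The call was lost without FGFR1-CSC replicate 3 (adjusted p = 0.0927), which leaves 1 sample in that combination.

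Among the stress keratins, KRT17 responded to CSC with 0.57 (SE 0.07) in GFP, 0.57 (SE 0.08) in PIK3CA and 0.47 (SE 0.05) in HCRED, but -0.11 (SE 0.05) in NRF2 and -0.10 (SE 0.07) in FGFR1 (adjusted p = 7.06e-08). KRT6A gave 1245, 1314 and 1205 CPM in DMSO and 2040, 2166 and 1732 CPM under CSC in PIK3CA, an estimate of 0.57 (SE 0.05), while CDKN2A was the single line with a negative one (-0.13, SE 0.07, adjusted p of the interaction = 4.06e-07). KRT16 ranged from -1.17 (SE 0.21) in NRF2 to 0.74 (SE 0.37) in PIK3CA (adjusted p = 0.00975), a call lost without NRF2-CSC replicate 3 (0.143) or NRF2-DMSO replicate 1 (0.0765) and by DESeq2 (0.053). For BaP, KRT17 ranged from -0.04 (SE 0.06) in NRF2 to 0.62 (SE 0.09) in CDKN2A (adjusted p = 0.00146, by DESeq2 0.0552). KRT6A ranged from -0.18 (SE 0.05) in NRF2 to 0.16 (SE 0.04) in NRG1 (adjusted p = 0.0305, by DESeq2 1.0), passing in 32 of 48 fits that left out 1 library. The line NRF2 thus held the lowest estimate for 4 of the 6 keratins called under CSC and for each of the 4 called under BaP. With the GC and length correction these 6 keratins passed under CSC and these 4 under BaP, with adjusted p of at most 0.0213 and 0.0117.

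**Figure D5:**
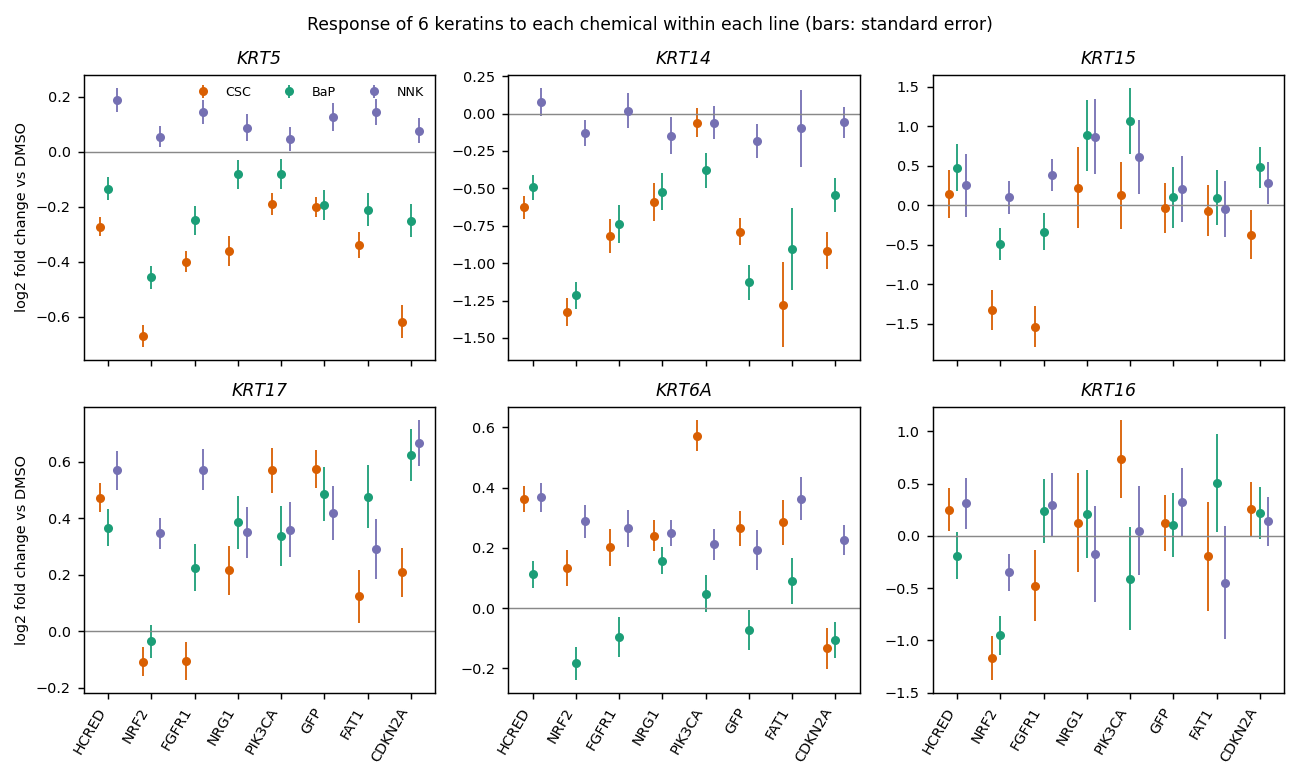
Log2 fold change against DMSO, with its standard error, of the 6 keratins whose response to CSC differed between lines, for each line (horizontal axis) and chemical (color). NRF2 holds the lowest CSC value for KRT5, KRT14, KRT17 and KRT16, at -0.67, -1.33, -0.11 and -1.17, and FGFR1 for KRT15, at -1.54.

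Of 14 cytolinkers and filament partners, all tested, 7 fell and none rose in NRG1, where 10.8% of all genes passed. In PIK3CA 1 rose and 8 fell (27.8% of all genes), in FGFR1 1 rose and 5 fell (13.5%) and in NRF2 6 rose and 1 fell (21.6%), which was 4 and 3 with the GC and length correction. In FAT1 6 rose and 3 fell (48.9%), in CDKN2A 3 rose and 7 fell (57.6%), and between the control lines 6 rose and 6 fell in GFP (45.0%). DSP (desmoplakin), which ties keratin filaments to desmosomes, fell by 0.60 in NRG1, by 0.67 in PIK3CA, by 1.05 in CDKN2A, by 0.33 in FAT1 and by 0.21 in FGFR1 on the log2 scale, and rose by 0.16 in NRF2. PKP1 (plakophilin), a desmosome plaque protein, fell by 0.97 in PIK3CA, by 0.77 in CDKN2A and by 0.43 in NRG1. Under CSC 6 of the 14 rose and 5 fell (55.6% of all genes passed), under BaP 8 rose and 5 fell (51.4%) and under NNK 8 rose and 3 fell (51.7%). With the correction these were 1 and 10 under CSC (34.2% of genes), 0 and 9 under BaP (25.1%) and 0 and 5 under NNK (17.4%). DSP fell under CSC in both cases (-0.58, corrected -0.55), whereas PLEC, the cytolinker plectin, rose by 0.60 before the correction only (adjusted p = 0.657 after it).

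Of 16 regulators of basal keratin genes, 15 were tested in most comparisons, and SOX2, with 20 reads in all, was near absent. In NRG1 2 rose and 9 fell, where 10.8% of all genes passed, in PIK3CA 1 rose and 9 fell (27.8%), and in FGFR1 none rose and 3 fell (13.5%). In NRF2 7 rose and 1 fell (21.6%), but the list holds NFE2L2, the gene overexpressed in that line, as 1 of the 7. In CDKN2A 4 rose and 9 fell (57.6%), in FAT1 2 of 14 rose and 2 fell (48.9%; none and 2 with the correction), and in GFP against HCRED 4 rose and 6 fell (45.0%). TP63, the defining factor of basal cells, fell by 0.29 on the log2 scale in PIK3CA (SE 0.06, adjusted p = 3.06e-05). GRHL3, a factor of epidermal differentiation, fell by 1.67 in NRG1, by 1.28 in PIK3CA and by 0.91 in FGFR1. Under CSC 6 regulators rose and 4 fell (55.6% of all genes), under BaP 5 rose and 2 fell (51.4%) and under NNK 4 rose and 1 fell (51.7%). With the correction these were 4 and 2 (34.2% of genes), 5 and 1 (25.1%), and 2 and 1 (17.4%). KLF4 rose under CSC (0.85, SE 0.07, corrected 0.50) and BaP (0.81, SE 0.08, corrected 0.45), as did CEBPB (0.92 and 0.71, corrected 0.33 and 0.16).

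Among 26 other keratins, 3 to 8 had enough reads to be tested. Of these, 2 of 3 rose in FAT1 (48.9% of all genes passed) and 4 of 8 in CDKN2A (57.6%), with no falls, though with the correction 3 rose and 1 fell in CDKN2A. In PIK3CA 1 of 6 rose and 5 fell (27.8%), in FGFR1 1 of 7 rose and 4 fell (13.5%), in NRF2 1 of 6 rose and 2 fell (21.6%), in NRG1 2 of 5 fell (10.8%), and in GFP against HCRED 5 of 5 fell (45.0%). KRT19, the small type I keratin of simple epithelia, fell by 1.78 on the log2 scale in PIK3CA (SE 0.05), where KRT8, KRT18 and KRT7 rose. It rose by 0.56 in FAT1 and by 0.53 in CDKN2A, and fell by 0.64 in NRF2 and by 0.35 in FGFR1. Under CSC 1 of 6 other keratins fell (55.6% of all genes passed) and under BaP none of 6 was called (51.4%). Under NNK 2 of 7 rose and 1 fell (51.7%). With the correction none rose, and 3 fell under CSC (34.2%), 3 under BaP (25.1%) and 2 under NNK (17.4%). KRT6C, the copy of KRT6A, had 173 reads over all samples.

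Of the 9 other intermediate filament genes, 5 or 6 were tested. In PIK3CA 5 rose (27.8% of all genes passed), in FGFR1 4 (13.5%) and in NRG1 2 (10.8%), with no falls. In CDKN2A 2 rose and 3 fell (57.6%), in NRF2 1 rose and 2 fell (21.6%), in FAT1 1 rose and 3 fell (48.9%) and in GFP 3 rose and 1 fell (45.0%). VIM (vimentin), the filament of mesenchymal cells, was higher by 1.83 (SE 0.09) in PIK3CA, by 1.39 (SE 0.09) in NRG1 and by 1.10 (SE 0.10) in FGFR1, and fell by 0.59 in FAT1 and further in NRF2 and in GFP against HCRED. The 6 fibroblast markers summed to at most 22.9 CPM in PIK3CA, 39.0 CPM in NRG1 and 39.2 CPM in FGFR1, beside 37.3 CPM in HCRED.

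The 8 basal markers include KRT5, KRT14 and KRT15, and all were tested. In PIK3CA 1 rose and 7 fell (27.8% of all genes passed), in NRG1 5 fell (10.8%), in FGFR1 2 rose and 4 fell (13.5%), in NRF2 3 rose and 2 fell (21.6%), in FAT1 5 fell (48.9%), in CDKN2A 4 rose and 4 fell (57.6%) and in GFP 1 rose and 3 fell (45.0%). Of the 6 markers of simple or glandular epithelium, which include KRT8, KRT18 and KRT19, 5 were tested. In FAT1 5 rose, in CDKN2A 4 rose, in NRF2 4 rose and 1 fell, in FGFR1 3 rose and 1 fell, in PIK3CA 3 rose and 2 fell, in NRG1 1 rose and 1 fell, and in GFP 4 fell.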

How the data were processed

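RNA of 95 samples was sequenced by SFL RNA-seq. Per the methods, the authors removed adapters with cutadapt, aligned reads to hg19 with STAR 2.5.2b and assigned them to RefSeq genes with featureCounts, and the deposited values are raw counts per gene, not normalized. Whether counting used the strand, and how it treated reads with several matches, is not given in the sources used here. The keratins and the other gene lists were chosen from general knowledge of these genes, with earlier results of these data known.

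Samples were grouped by line and treatment as labelled. A gene was tested where its count averaged more than 1 in the samples of a comparison. Counts were scaled by TMM in edgeR 4.0.16, transformed with voom and tested in limma 3.58.1 (R 4.3.3). P-values of single differences were 2-sided and were adjusted by Benjamini-Hochberg over all genes tested. The model was line plus treatment, or their interaction. Depth, 287446 to 2116383 counts per sample, limits the low keratins, and the level of 3 reads covers counting error only. For the GC and length correction, loess trends (span 0.3) were fitted in each sample of a comparison and subtracted. They were fitted to deviations from the gene mean, over the genes tested that had a GENCODE model on GRCh37. Of all genes listed 24309 (86.9%) had a model, and 13579, 13489 and 13487 entered the fits of CSC, BaP and NNK. Other settings were the quasi-likelihood test of edgeR, DESeq2 1.42.0, DESeq2 size factors, other filters on low counts, 1 fit of all samples, a block for the replicate number, and fits without 1 library at a time. Scripts were tested on simulated data. The 10 keratins were followed in each comparison. Named beside them are of each other list at most 4 genes by smallest adjusted p, and for each keratin the 3 genes nearest in pattern.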

Additional observations from a re-analysis of the deposited data

Results flagged for a closer look

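The response to CSC differed between the 8 lines, by an F test of the interaction in limma with Benjamini-Hochberg adjustment, for KRT5 (adjusted p = 7.06e-08), KRT14 (1.9e-07), KRT15 (0.0135), KRT17 (7.06e-08), KRT6A (4.06e-07) and KRT16 (0.00975). KRT5 and KRT14 had lower estimates in 8 of 8 lines, though that of KRT14 in PIK3CA was -0.06 (SE 0.10). KRT17 had higher estimates in 6 lines, KRT6A in 7, KRT16 in 5 and KRT15 in 3. The response to BaP differed for KRT5 (adjusted p = 0.0251), KRT14 (0.000178), KRT17 (0.00146) and KRT6A (0.0305), with higher estimates in 7 lines for KRT17 and in 4 for KRT6A. NRF2-DMSO samples, which enter each of these responses, held the highest mean levels of KRT14 (662 CPM) and KRT16 (91.7 CPM) of the 32 combinations. The part of these levels in the estimates of NRF2 was not tested.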

How the results depend on the processing

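Depth limits KRT6B (0 to 27 reads) and KRT7 in GFP, FAT1 and CDKN2A (0 to 43 reads). Of the counts of keratins called, 195 under the other settings and 492 with a library left out were within 1.5 times the reported one. The exceptions were DESeq2 in DMSO with 3 in CDKN2A, 5 in FGFR1 and 5 in GFP, the 10000 genes of largest median absolute deviation with 2 for BaP and 2 for its interaction, and no filter with 3 for the CSC and 1 for the BaP interaction. The BaP interaction also gave 2 by DESeq2, 2 in 1 fit of all samples and 2 to 6 with a library left out (2 without NRF2-BaP replicate 3, NRF2-DMSO replicate 1 or NRF2-DMSO replicate 2), and the NNK interaction 1 by DESeq2. The 2 calls by DESeq2 for the BaP interaction did not include KRT5, KRT17 or KRT6A. The causes were not tested.

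Replicate numbers did not pair the samples (mean correlation of same-numbered deviations -0.0086 to 0.0411). With the replicate block alone 20 of 20 counts and 182 single values kept their side of the threshold, 2 became stronger and 1 weaker. With the replicate block and the GC and length correction the counts were 4 for NNK and 1 for its interaction.

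Single log2 fold changes that changed sign are given next, first with the GC and length correction alone and then with the replicate block as well. They were KRT6A in CDKN2A (-0.0795 and -0.082, in DMSO -0.0387 and -0.0392), under CSC KRT17 (-0.1348 and -0.1283) and KRT8 (-0.2612 and -0.2624), and under BaP KRT15 (-0.1631 and -0.1619), KRT17 (-0.046 and -0.0566), KRT6A (-0.1848 and -0.1898), KRT6B (-0.0191 and -0.0415), KRT8 (-0.1976 and -0.195) and KRT18 (-0.0026 and -0.0003). Under NNK they were KRT5 (-0.0247 and -0.0223), KRT16 (-0.356 and -0.3387), KRT7 (-0.1157 and -0.1075) and KRT8 (-0.0597 and -0.0597). In 1 fit of all samples, KRT7 in FAT1 gave 0.0603 and under NNK -0.1263, KRT8 under CSC -0.0103 and KRT6A under BaP -0.0068. Without the DMSO samples KRT7 gave 0.5658 in FAT1 and 0.5357 in CDKN2A. By edgeR KRT8 under CSC gave -0.0074, KRT6A under BaP -0.0036 and KRT6B under NNK 0.0528, and by DESeq2 KRT6A under BaP gave -0.0012 and KRT6B under NNK 0.0421. With a library left out, ranges that crossed 0 were -0.6713 to 0.164 for KRT7 in FAT1, -0.8221 to 0.0255 for KRT7 in CDKN2A (both highest without GFP-DMSO replicate 3), -0.0815 to 0.0127 for KRT14 in NRF2, -0.0133 to 0.0266 for KRT8 under CSC, -0.0047 to 0.0245 for KRT6A under BaP, and under NNK -0.2029 to 0.1397 for KRT6B and -0.0358 to 0.0768 for KRT16.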

Other observations

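The ratio of the summed type II to the summed type I keratins, per kilobase of the canonical transcripts of the 10 genes, had a median of 3.65 in PIK3CA (3.12 to 4.27), 3.44 in FAT1 (2.62 to 4.09) and 3.20 in NRG1 (2.77 to 3.83). It was 1.95 in HCRED (1.73 to 2.35), 1.73 in NRF2 (1.53 to 1.99), 2.43 in GFP (2.06 to 2.81), and 2.38 in FGFR1 (2.11 to 2.89), and ran from 1.80 to 2.71 in CDKN2A. The samples of PIK3CA and NRG1 thus lay above those of HCRED without overlap. The genes nearest to KRT6B in pattern over the 32 combinations were SLPI (r = 0.791), TIMP3 (0.751) and S100A9 (0.727), and TIMP3 was also the nearest to KRT17.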
